A study of Mus musculus with 6 samples.

Results

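The genes of proximal T cell receptor signalling, from the CD3 chains of the receptor to the kinases, adaptors, enzymes and inhibitors that act just behind it, were followed across 6 RNA-seq libraries of regulatory T (Treg) cells. The set holds 42 genes chosen by symbol, and 42 of them are present among the 14608 genes of both deposited tables. Treg cells are CD4 T cells that keep immune responses in check under the control of Foxp3. The cells were sorted from mouse spleen as CD4+YFP+ cells after magnetic enrichment of CD4+ cells, and total RNA was sequenced. There were 2 libraries for each of 3 genotypes, wild type (WT), heterozygous Cdc42 knockout (Cdc42+/-) and homozygous Cdc42 knockout (Cdc42-/-). Cdc42 is a small GTPase that organises actin and cell polarity. The labels do not say whether the libraries of a genotype came from separate mice, so that the p-values measure the spread between libraries, which may be technical. Nor do they give the age, sex or strain of the mice, the promoter behind the knockout, what drives YFP, or any treatment. Levels are in RPKM, reads scaled by gene length and library size, and can be compared between genes. Differences are on the log2(RPKM + 1) scale.

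The T cell receptor has no enzyme of its own. Its ligand-binding chains are carried by CD3 delta, epsilon, gamma and zeta, whose tails hold tyrosine motifs that the kinase Lck phosphorylates, with help from the coreceptor CD4. Zap70 then docks on these motifs and phosphorylates the adaptors Lat and Slp-76, on which phospholipase C gamma and exchange factors for small GTPases assemble. Their products drive calcineurin with NFAT and protein kinase C theta. Phosphatases, Csk and diacylglycerol kinase hold the pathway back. Treg cells need T cell receptor signals for their suppressive state.

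Sequencing depth was between 8556576 and 17796100 reads in genes per library, and 41 of the 42 members had at least 100 reads in every library. The exception, Tec, had no fewer than 65. Cdc42 itself had WT levels of 166 and 161 RPKM, Cdc42+/- levels of 164 and 156 RPKM and Cdc42-/- levels of 122 and 173 RPKM, so the gene's total level did not separate the genotypes and every group below is named as labelled. The Treg markers, a list of 8 genes, were present throughout. Their levels summed to 1489 and 1383 RPKM for the WT libraries, 1247 and 1160.5 RPKM for Cdc42+/-, and 1192 and 936 RPKM for Cdc42-/-. The sum joined genes that went different ways. In both Cdc42-/- libraries Izumo1r and Ikzf2 lay below, and Ctla4 and Tnfrsf4 above, every WT and Cdc42+/- library. Foxp3 had WT levels of 131 and 118 RPKM, Cdc42+/- levels of 113 and 103 RPKM and Cdc42-/- levels of 118 and 58.4 RPKM. Replicate 2 of Cdc42-/- stood apart. In it, 13 of 13 myeloid markers were at their highest, with a summed level of 1605 RPKM against 51.8 RPKM in replicate 1 of Cdc42-/- and 17.1 to 59.9 RPKM in the WT libraries, which enclose the Cdc42+/- libraries. Lyz2, a lysozyme of myeloid cells, was at 600.2 RPKM there and at 9.75 RPKM in replicate 1. The erythroid list, with 4 of its 6 genes in the tables, summed to 24.8 RPKM in replicate 2, 4.45 RPKM in replicate 1 and at most 1.34 RPKM elsewhere. B cell markers summed to between 10.4 and 19.1 RPKM and CD8 T or NK cell markers to between 9.59 and 14.2 RPKM in the 6 libraries. Pax5 was at 0 in WT replicate 2 and Cdc42-/- replicate 2, Ms4a1 and Klrb1c were at 0 in Cdc42-/- replicate 1, Klf1 was at 0 in replicate 2 of WT and of Cdc42+/-, and no myeloid marker was at 0 in any library. Sex-linked genes also split the libraries. Xist, expressed from the inactive X chromosome of females, had WT levels of 0.199 and 1.13 RPKM, Cdc42+/- levels of 99.3 and 93.3 RPKM and Cdc42-/- levels of 87.4 and 21.2 RPKM. Ddx3y, a gene of the Y chromosome, had WT levels of 37.7 and 42.4 RPKM, Cdc42+/- levels of 0.126 and 0 RPKM and Cdc42-/- levels of 0.0974 and 27.5 RPKM. Thus the WT libraries were high in Ddx3y, the Cdc42+/- libraries and replicate 1 of Cdc42-/- were high in Xist, and replicate 2 of Cdc42-/- held both. Between WT and Cdc42+/- these genes and the genotype cannot be told apart, and their part in any difference below was not tested. In these bulk libraries fewer T cells and less RNA of a gene per T cell cannot be told apart.

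**Figure D1:**
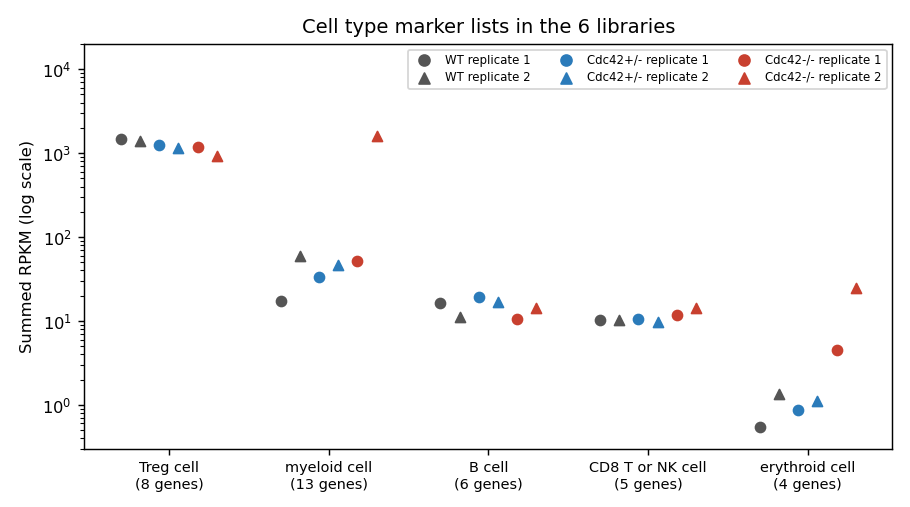
Summed RPKM (log axis) of 5 cell type marker lists in each of the 6 libraries; colour gives the genotype and shape the replicate. The myeloid list reaches 1605 RPKM in replicate 2 of Cdc42-/- and is at most 59.9 RPKM in the other libraries, while the Treg list lies between 936 and 1489 RPKM.

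The pathway was abundantly expressed in WT Treg cells. Ptprc, which encodes the phosphatase CD45, had the highest level at 444 ± 17.9 RPKM (mean ± SD, n = 2), followed by Dgka, a diacylglycerol kinase, at 431 ± 28.5 RPKM and Cd3g at 417 ± 12.7 RPKM. These neighbours in the order were within their replicate spread of each other. Lat, Cd2 and Cd3e came next at 383 ± 21.02, 383 ± 17.8 and 377 ± 6.53 RPKM, and these 3 were within their spread of each other; the step from Cd3g to Lat was larger than the SD of either. At the lower end stood Tec at 2.83 ± 0.0354 RPKM, the Ras exchange factor Sos1 at 8.14 ± 1.39 RPKM and Themis at 11.9 ± 0.629 RPKM.

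In the libraries labelled Cdc42-/-, a subset of these genes had lower RNA. Against WT, 8 of the 42 members were lower in Cdc42-/- and 0 were higher (limma, Benjamini-Hochberg adjusted p under 0.05 over the 12233 genes tested, of which 42 are members), a share of 19.05%. Over all genes tested 4.57% were lower and 6.86% higher, 11.4% in all. At an unadjusted p under 0.05, 12 members were lower and 4 higher, beside 29.3% of all genes in either direction. The 8 were Cd3d, Cd3e, Cd3g, Fyn, Lat, Skap1, Sh2d1a and Ptpn22. The comparison of Cdc42-/- with Cdc42+/- also gave 8 lower and 0 higher, where 3.54% of all genes were lower and 4.68% higher (8.22% in all), and they were the same 8 genes; both comparisons share the Cdc42-/- libraries. The median log2 difference of the 42 members was -0.29 against WT and -0.36 against Cdc42+/-, beside medians of 0.010 and -0.012 over all genes tested. In 20 members, or 47.6%, both Cdc42-/- libraries lay below both WT libraries, as did 27.1% of all genes, and in 8 members both lay above, as did 28.9% of all genes. Against Cdc42+/- the libraries did not overlap in 27 members that were lower and 4 that were higher, beside 30.4% and 28.6% of all genes. With upper-quartile scaling the genes called over the whole table in Cdc42-/- against WT went from 839 higher and 559 lower to 731 higher and 753 lower, while the members stayed at 0 higher and 8 lower. The count depended on which libraries were fitted. Without either WT library 0 members passed against WT, and without either Cdc42+/- library 2 passed (Skap1 and Sh2d1a), which was also the count when only the WT and Cdc42-/- libraries were fitted. Without replicate 1 of Cdc42-/- 30 members passed, and without replicate 2 of Cdc42-/- 9 passed. Against Cdc42+/-, 0 members passed when only these genotypes were fitted or when any 1 of the WT and Cdc42+/- libraries was left out, and 5 passed with no filter on low values, with array weights or with a replicate block. Exons of Cd3e, Lat, Sh2d1a and Skap1 overlap those of another gene in GENCODE M21 (Gm48719, Mir7058, Tenm1 and 2010300F17Rik in that order, Mir7058 on the same strand and the others on the opposite one), and as the strand setting of the counting is not given, some reads of these 4 may belong to the other gene.

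**Figure D2:**
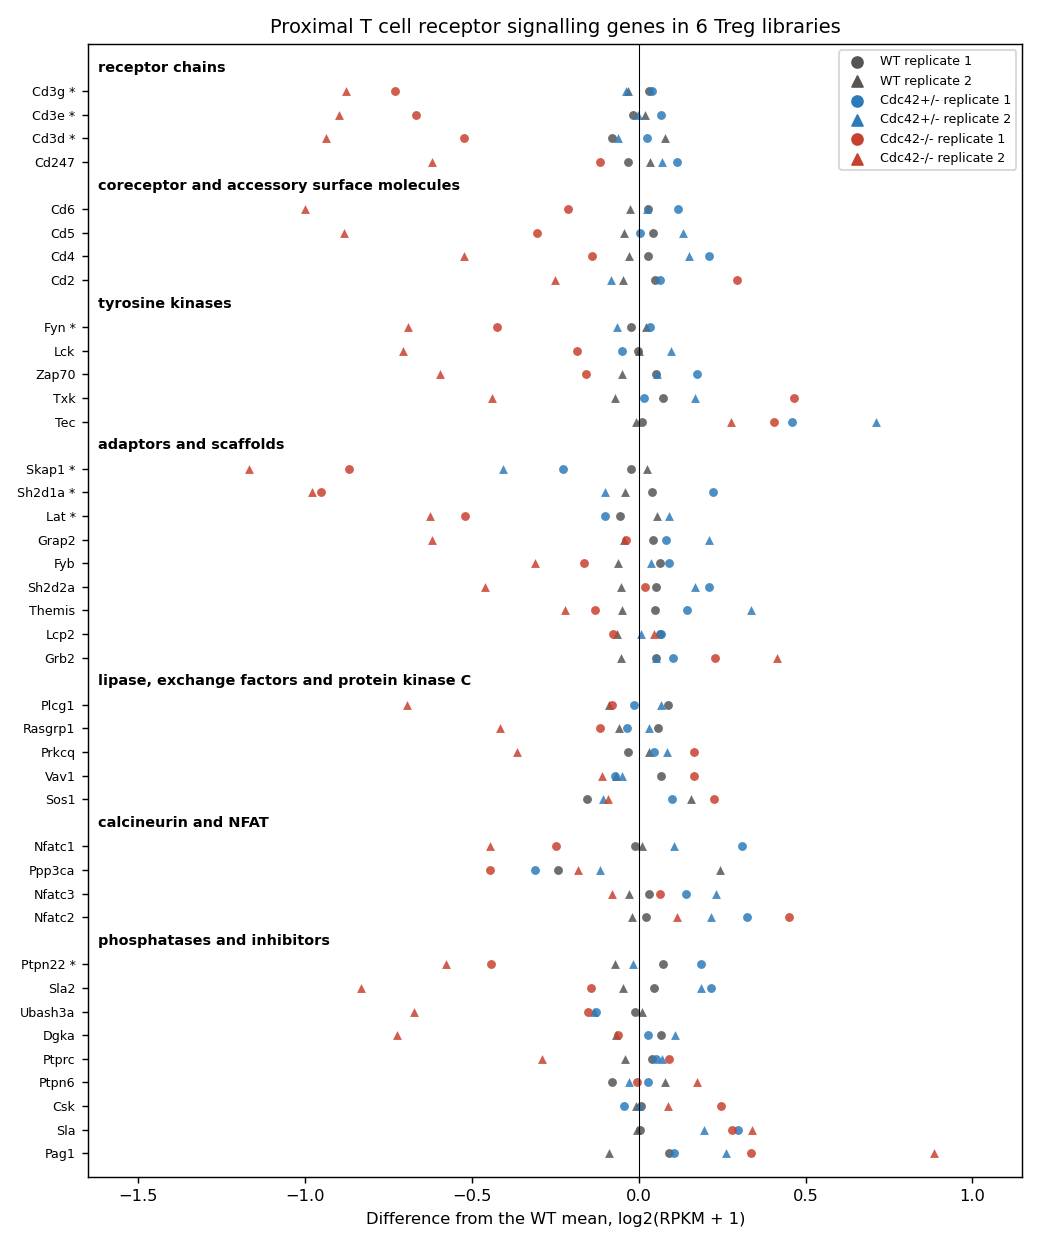
Difference of each library from the WT mean on the log2(RPKM + 1) scale (x axis) for 40 of the 42 members, grouped by role; colour gives the genotype, shape the replicate, and an asterisk marks the 8 members past the threshold in Cdc42-/- against WT. For these 8 both Cdc42-/- libraries lie to the left of every WT and Cdc42+/- library, while the Cdc42+/- libraries mostly lie close to WT.

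Of the 4 chains of the receptor complex, 3 fell and 1 did not pass. Of all genes tested, 4.57% were lower against WT and 3.54% against Cdc42+/-. The CD3 genes Cd3g, Cd3e and Cd3d fell in Cdc42-/-, and the 4 chains had a median log2 difference of -0.76 against WT and -0.76 against Cdc42+/-. Cd3g (CD3 gamma, gene ID 12502) had WT levels of 426 and 408 RPKM, Cdc42+/- levels of 428 and 406 RPKM and Cdc42-/- levels of 251 and 226 RPKM. Both Cdc42-/- libraries were far below the other 4, at 60.2% and 54.3% of the WT mean, and the log2 fold change was -0.80 (SE 0.11, adjusted p 0.00895) against WT and -0.80 (SE 0.11, adjusted p 0.0144) against Cdc42+/-. Cd3e (CD3 epsilon, gene ID 12501), the partner of both the gamma and the delta chain, had WT levels of 372 and 382 RPKM, Cdc42+/- levels of 395 and 376 RPKM and Cdc42-/- levels of 237 and 202 RPKM. Again the Cdc42-/- libraries did not overlap the others, and the change against WT was -0.78 (SE 0.12, adjusted p 0.0126). Cd3d (CD3 delta, gene ID 12500) had WT levels of 229 and 256 RPKM, Cdc42+/- levels of 247 and 232 RPKM and Cdc42-/- levels of 168 and 126 RPKM, lower in replicate 2 of Cdc42-/- than in replicate 1. Its change was -0.73 (SE 0.16, adjusted p 0.0379) against WT and -0.71 (SE 0.16, adjusted p 0.0485) against Cdc42+/-. Cd247 (the zeta chain, gene ID 12503), which carries most of the tyrosine motifs of the complex, had WT levels of 46.7 and 49.00 RPKM, Cdc42+/- levels of 51.9 and 50.2 RPKM and Cdc42-/- levels of 44.04 and 30.8 RPKM. The difference lay mainly in replicate 2, and with -0.37 (SE 0.17, adjusted p 0.215) it did not pass the threshold.

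Cd3g, Cd3d and Cd3e lie next to each other on chromosome 9, and Cd247 lies on chromosome 1. In the RefSeq annotation of GRCm38.p6, the patch release of the build mm10 named in the submitters' processing notes, the starts of Cd3g and Cd3d are 1355 bases apart and point away from each other, and Cd3e starts 27825 bases from Cd3d. The 250 bases in front of the start of each of these 4 genes, and of Lat and Fyn as the other members past the threshold with 1 listed start, are shown so that the promoters of genes that fell can be read beside that of Cd247. They run 5′ to 3′ on the gene's strand. Capitals mark AGGAAG (the core of ETS factors), TGTGGT (RUNX) and CTTTGA (TCF and LEF factors) on either strand.
Cd3g: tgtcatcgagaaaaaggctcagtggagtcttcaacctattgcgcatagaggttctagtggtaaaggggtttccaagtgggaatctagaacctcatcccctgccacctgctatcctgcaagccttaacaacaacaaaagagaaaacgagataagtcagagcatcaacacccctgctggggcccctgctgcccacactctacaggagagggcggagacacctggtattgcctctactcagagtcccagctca
Cd3d: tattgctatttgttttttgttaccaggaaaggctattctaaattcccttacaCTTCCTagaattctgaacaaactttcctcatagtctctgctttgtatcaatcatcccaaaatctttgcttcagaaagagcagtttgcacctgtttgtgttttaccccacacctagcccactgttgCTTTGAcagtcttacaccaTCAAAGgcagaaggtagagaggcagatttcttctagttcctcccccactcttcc
Cd3e: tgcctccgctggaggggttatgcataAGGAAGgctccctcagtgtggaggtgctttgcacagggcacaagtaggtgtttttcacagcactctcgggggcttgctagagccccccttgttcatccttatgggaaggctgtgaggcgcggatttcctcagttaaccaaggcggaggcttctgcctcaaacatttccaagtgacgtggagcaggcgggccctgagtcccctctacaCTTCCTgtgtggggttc
Cd247: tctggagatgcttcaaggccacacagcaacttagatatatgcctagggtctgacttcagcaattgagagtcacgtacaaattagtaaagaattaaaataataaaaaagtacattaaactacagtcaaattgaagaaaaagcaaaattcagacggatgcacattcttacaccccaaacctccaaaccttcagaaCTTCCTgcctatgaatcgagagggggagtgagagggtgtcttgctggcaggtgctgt
Lat: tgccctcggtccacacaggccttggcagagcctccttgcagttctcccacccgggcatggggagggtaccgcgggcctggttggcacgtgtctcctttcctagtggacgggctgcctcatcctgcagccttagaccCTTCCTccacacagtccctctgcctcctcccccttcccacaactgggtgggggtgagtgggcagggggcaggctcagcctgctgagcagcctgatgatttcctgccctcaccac
Fyn: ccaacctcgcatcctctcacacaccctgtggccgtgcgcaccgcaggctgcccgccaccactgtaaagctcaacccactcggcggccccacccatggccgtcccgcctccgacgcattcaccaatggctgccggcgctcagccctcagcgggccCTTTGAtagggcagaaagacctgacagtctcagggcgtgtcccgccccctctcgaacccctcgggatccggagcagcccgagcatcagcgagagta
The windows are chr9:44980432-44980681, minus strand, for Cd3g, chr9:44981536-44981785, plus strand, for Cd3d, chr9:45009612-45009861, minus strand, for Cd3e, chr1:165788431-165788680, plus strand, for Cd247, chr7:126369569-126369818, minus strand, for Lat, and chr10:39369549-39369798, plus strand, for Fyn. The Cd3g window held none of the 3 motifs in these letters, the Cd3d window held 3 matches and the Cd3e window 2, with the nearest ETS core of Cd3e 17 bases before the start. Promoters were found for 31 of the 42 members, some with several starts. At least 1 such window held AGGAAG in 67.7% of these 31 genes, TGTGGT in 19.4% and CTTTGA in 29.03%. Among the 9725 genes tested here that have a promoter in the table, the shares were 32.9%, 13.2% and 12.8%, and of all 32851 windows 29.5%, 14.05% and 13.8% held them. A match of these letters is not evidence of binding.

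The coreceptor and accessory molecules of the surface did not pass the threshold, although 3 of the 4 had both Cdc42-/- libraries below both WT libraries, a position held by 27.1% of all genes. Cd4 (gene ID 12504), the coreceptor that brings Lck to the receptor and by which the cells were sorted, had WT levels of 193 and 185 RPKM, Cdc42+/- levels of 219 and 210.3 RPKM and Cdc42-/- levels of 172 and 131 RPKM. Its log2 difference was -0.33 (SE 0.14, adjusted p 0.189) against WT and -0.51 (SE 0.14, adjusted p 0.0849) against Cdc42+/-. Cd5, a scavenger-type receptor that dampens T cell receptor signals, had WT levels of 269.9 and 254 RPKM, Cdc42+/- levels of 262 and 287 RPKM and Cdc42-/- levels of 212 and 142 RPKM, with a difference of -0.59 (SE 0.19, adjusted p 0.105) against WT. Its close relative Cd6 had WT levels of 177 and 171 RPKM, Cdc42+/- levels of 189 and 177 RPKM and Cdc42-/- levels of 149.8 and 86.4 RPKM, with -0.61 (SE 0.24, adjusted p 0.162). In Cd5 and Cd6 the replicates of Cdc42-/- differed by more than replicate 1 differed from WT. Cd2, an adhesion receptor, was on both sides of WT: replicate 1 of Cdc42-/- was above both WT libraries and replicate 2 below them.

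Among the tyrosine kinases, Fyn fell and the others did not pass. Fyn (gene ID 14360), the Src family kinase beside Lck, had WT levels of 156 and 161 RPKM, Cdc42+/- levels of 162 and 151 RPKM and Cdc42-/- levels of 117 and 97.5 RPKM. The Cdc42-/- libraries were at 74.3% and 61.7% of the WT mean, and the change was -0.56 (SE 0.12, adjusted p 0.0382) against WT and -0.54 (SE 0.12, adjusted p 0.0495) against Cdc42+/-. Lck (gene ID 16818), the kinase that starts the cascade, had WT levels of 327 and 328 RPKM, Cdc42+/- levels of 316 and 350.1 RPKM and Cdc42-/- levels of 288 and 200.3 RPKM. The difference of -0.45 (SE 0.18, adjusted p 0.168) came mostly from replicate 2. Zap70 (gene ID 22637), which docks on the phosphorylated CD3 tails, had WT levels of 90.3 and 84.1 RPKM, Cdc42+/- levels of 98.4 and 90.5 RPKM and Cdc42-/- levels of 77.96 and 57.3 RPKM, with -0.38 (SE 0.16, adjusted p 0.180). The Tec family kinases, which activate phospholipase C gamma, had no common direction. Txk had WT levels of 28.1 and 25.3 RPKM, Cdc42+/- levels of 26.9 and 30.05 RPKM and Cdc42-/- levels of 37.2 and 19.4 RPKM, with replicate 1 of Cdc42-/- the highest and replicate 2 the lowest of the 6 libraries. Tec had WT levels of 2.86 and 2.81 RPKM, Cdc42+/- levels of 4.27 and 5.28 RPKM and Cdc42-/- levels of 4.08 and 3.65 RPKM, higher in all 4 Cdc42+/- and Cdc42-/- libraries than in both WT libraries, with a log2 difference from WT of 0.58 (SE 0.19, adjusted p 0.906) in Cdc42+/- libraries; that in Cdc42-/- was 0.34 (SE 0.19, adjusted p 0.275).

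Of the 9 adaptors and scaffolds, 3 fell in Cdc42-/-, 0 rose, and the median log2 difference against WT was -0.24. Over all genes tested 4.57% were lower and 6.86% higher against WT, with a median of 0.010. Skap1 (gene ID 78473), the adaptor that links the receptor to integrin adhesion together with Fyb, had WT levels of 129 and 133 RPKM, Cdc42+/- levels of 112 and 98.6 RPKM and Cdc42-/- levels of 71.3 and 57.7 RPKM. The genotypes did not overlap, with Cdc42+/- between WT and Cdc42-/-, and the change of Cdc42-/- was -1.02 (SE 0.13, adjusted p 0.00781) against WT and -0.70 (SE 0.13, adjusted p 0.0327) against Cdc42+/-. Sh2d1a (SAP, gene ID 20400), the adaptor of the SLAM receptors that recruits Fyn, had WT levels of 53.8 and 50.8 RPKM, Cdc42+/- levels of 61.2 and 48.7 RPKM and Cdc42-/- levels of 26.5 and 26.1 RPKM. Both Cdc42-/- libraries were near 50.2% of the WT mean and close to each other, and the change was -0.97 (SE 0.13, adjusted p 0.00916) against WT and -1.03 (SE 0.13, adjusted p 0.0131) against Cdc42+/-. Sh2d1a is on the X chromosome, and the part of the split in Xist and Ddx3y in its values was not tested. Lat (gene ID 16797), the membrane scaffold phosphorylated by Zap70, had WT levels of 369 and 398 RPKM, Cdc42+/- levels of 357 and 408 RPKM and Cdc42-/- levels of 267 and 248 RPKM. Its Cdc42-/- libraries were at 69.5% and 64.7% of the WT mean, with -0.57 (SE 0.12, adjusted p 0.0342) against WT and -0.57 (SE 0.12, adjusted p 0.0422) against Cdc42+/-. Grap2 (Gads), which joins Lat to Slp-76, had WT levels of 74.7 and 70.3 RPKM, Cdc42+/- levels of 76.7 and 83.98 RPKM and Cdc42-/- levels of 70.5 and 46.9 RPKM, with -0.33 (SE 0.19, adjusted p 0.306) against WT and replicate 1 within the WT range. Grb2, which brings Sos1 to Lat, had WT levels of 55.5 and 51.6 RPKM, Cdc42+/- levels of 57.6 and 55.5 RPKM and Cdc42-/- levels of 62.9 and 71.7 RPKM, above WT in both Cdc42-/- libraries but short of the threshold at 0.32 (SE 0.11, adjusted p 0.116). The remaining 4, Lcp2 (Slp-76), Themis, Fyb and Sh2d2a, had log2 differences between -0.24 and -0.017 against WT, and none passed.

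**Figure D3:**
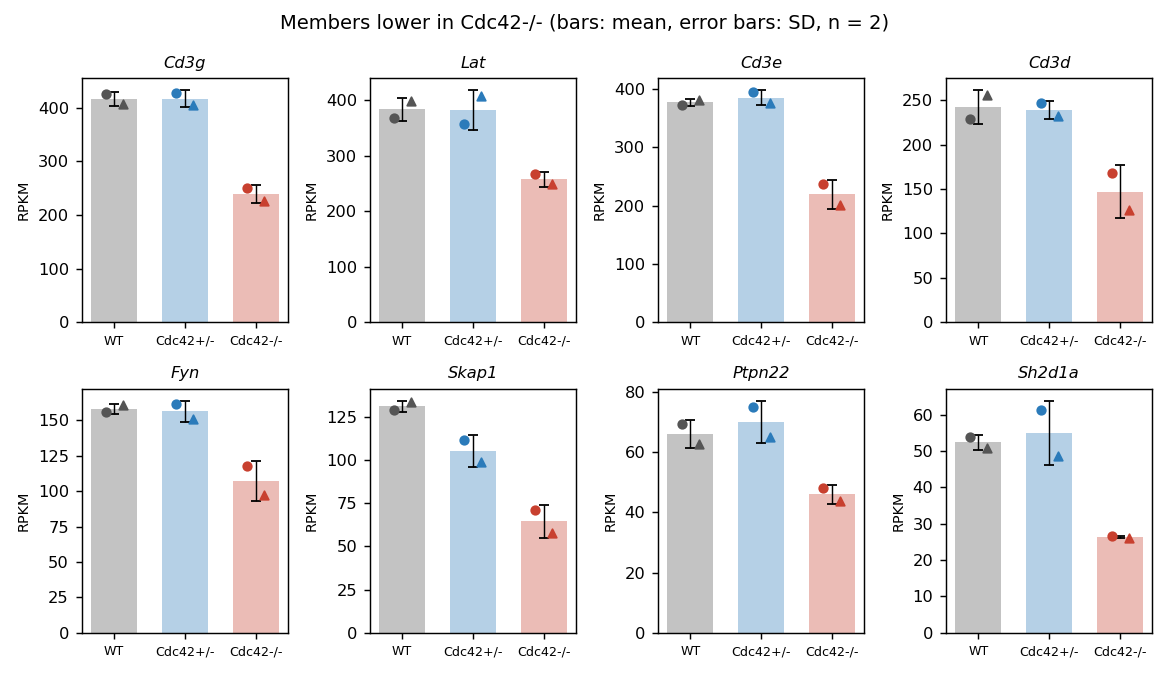
RPKM of the 8 members past the threshold in Cdc42-/-, with bars for the mean, error bars for the SD (n = 2) and points for the libraries (circle, replicate 1; triangle, replicate 2). In each panel both Cdc42-/- libraries lie below all 4 others, and Skap1 is the only panel of the 8 in which both Cdc42+/- libraries also lie below both WT libraries.

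The lipase, the exchange factors and protein kinase C theta, which pass the signal on to calcium, Ras and NF-kB, gave 0 of 5 members past the threshold in Cdc42-/- against WT, with a median log2 difference of -0.10. Plcg1 (phospholipase C gamma 1, gene ID 18803) had WT levels of 86.6 and 76.5 RPKM, Cdc42+/- levels of 80.7 and 85.3 RPKM and Cdc42-/- levels of 76.97 and 49.9 RPKM. Replicate 1 of Cdc42-/- lay within the WT range and replicate 2 below it, and the difference was -0.39 (SE 0.20, adjusted p 0.261). Rasgrp1, the Ras exchange factor driven by diacylglycerol, had WT levels of 101 and 92.6 RPKM, Cdc42+/- levels of 94.2 and 98.7 RPKM and Cdc42-/- levels of 88.95 and 72.1 RPKM, with -0.27 (SE 0.13, adjusted p 0.230). Prkcq (protein kinase C theta) had WT levels of 108 and 113 RPKM, Cdc42+/- levels of 114 and 117 RPKM and Cdc42-/- levels of 124 and 85.6 RPKM, with replicate 1 above and replicate 2 below WT. Vav1, the exchange factor that can act on Cdc42 and Rac proteins, had WT levels of 55.5 and 50.5 RPKM, Cdc42+/- levels of 50.4 and 51.1 RPKM and Cdc42-/- levels of 59.5 and 48.9 RPKM, a difference of 0.027 (SE 0.13, adjusted p 0.907) that was no larger than the spread; it was singled out after its values were seen, because of that role. Sos1 differed by 0.067 and did not pass.

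Of the 4 calcineurin and NFAT genes, 0 passed. Nfatc1, a transcription factor that calcineurin releases into the nucleus, had WT levels of 35.7 and 36.3 RPKM, Cdc42+/- levels of 44.8 and 38.9 RPKM and Cdc42-/- levels of 30.2 and 26.2 RPKM. Its difference was -0.35 (SE 0.13, adjusted p 0.130) against WT and, at the edge of the threshold, -0.55 (SE 0.13, adjusted p 0.0502) against Cdc42+/-. Ppp3ca, the catalytic subunit of calcineurin, had WT levels of 19.1 and 27.2 RPKM, Cdc42+/- levels of 18.2 and 20.98 RPKM and Cdc42-/- levels of 16.5 and 19.99 RPKM, with a WT spread as large as any difference between genotypes. Nfatc2 and Nfatc3 differed by 0.28 and -0.0085 against WT, and neither passed.

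Among the 9 phosphatases and inhibitors, Ptpn22 fell and 8 did not pass, where 4.57% of all genes were lower against WT. Ptpn22 (gene ID 19260), a phosphatase that acts on Lck and Zap70, had WT levels of 69.3 and 62.6 RPKM, Cdc42+/- levels of 75.1 and 65.1 RPKM and Cdc42-/- levels of 48.3 and 43.9 RPKM. The Cdc42-/- libraries were at 73.1% and 66.5% of the WT mean, with -0.51 (SE 0.12, adjusted p 0.0486) against WT and -0.59 (SE 0.12, adjusted p 0.0389) against Cdc42+/-. Pag1, the membrane adaptor that holds the inhibitory kinase Csk near Lck, had the highest log2 difference of all 42 members at 0.61 (SE 0.20, adjusted p 0.103). It had WT levels of 19.2 and 16.8 RPKM, Cdc42+/- levels of 19.4 and 21.8 RPKM and Cdc42-/- levels of 23.00 and 34.1 RPKM, and most of the difference was in replicate 2. Sla2, an adaptor that promotes receptor turnover, had WT levels of 13.7 and 12.8 RPKM, Cdc42+/- levels of 15.5 and 15.2 RPKM and Cdc42-/- levels of 11.9 and 6.98 RPKM, with -0.49 (SE 0.23, adjusted p 0.220). The other 6 (Ptprc, Ptpn6, Csk, Ubash3a, Sla and Dgka) had log2 differences between -0.41 and 0.31 against WT. For Csk and Sla both Cdc42-/- libraries lay above both WT libraries, and for Ubash3a both lay below, short of the threshold. Of all genes, 28.9% lay above in this way and 27.1% below.

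In the libraries labelled Cdc42+/-, no member passed in the limma fit, while the authors' deposited table lists 2. In Cdc42+/- against WT limma called 0 of the 42 members, with 0.0% of all genes called, and voom on the recovered reads called 0 members as well. An unadjusted p under 0.05 was found for 3 members, Tec and Sla among them, each higher in Cdc42+/-, and for 4.32% of all genes. The median log2 difference of the 42 members was 0.065, beside 0.030 over all genes tested, and the values ran from -0.32 for Skap1 to 0.58 for Tec. Cd3g, Cd3e and Cd3d had Cdc42+/- means of 417 ± 15.99, 385 ± 12.96 and 239 ± 10.4 RPKM against WT means of 417 ± 12.7, 377 ± 6.53 and 243 ± 19.1 RPKM, differences within the replicate spread. In Skap1 the step from WT to Cdc42+/-, -0.32 (SE 0.13, adjusted p 0.999), did not pass. Both Cdc42+/- libraries lay above both WT libraries in 16 of the 42 members (38.1%) and below them in 2 (4.76%), beside 26.2% and 17.0% of all genes, and Skap1 was 1 of these 2. The authors' deposited table lists 2 members past an adjusted p of 0.05 in this comparison, Skap1 lower (log2 fold change -0.35, adjusted p 0.0197) and 1 higher, where it lists 0.561% of all genes lower and 1.72% higher. For Cdc42-/- against WT the authors' deposited table lists 5 members lower, Skap1 (adjusted p 0.000300), Cd3g (0.00397), Cd3e (0.00584), Sh2d1a (0.00635) and Cd3d (0.0264), and 0 higher, beside 2.66% and 6.0% of all genes. All 5 are among the 8.

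Since replicate 2 of Cdc42-/- stood apart in its myeloid markers, the members were examined in each Cdc42-/- library. The median log2 difference of the 42 members from the WT mean was -0.10 in replicate 1 and -0.44 in replicate 2, while over all genes tested it was 0.0015 and 0.021. Replicate 2 was the lower of both libraries in 34 of the 42 members, and in 5623 of the 12233 genes tested. The receptor chains were low in each of them, with medians of -0.59 in replicate 1 and -0.89 in replicate 2. The coreceptor and accessory group, in contrast, had -0.18 and -0.70, and the lipase and exchange factor group 0.17 and -0.37, so that most of their difference was in replicate 2. In 6 members (Cd2, Txk, Vav1, Prkcq, Nfatc3 and Ptprc) replicate 1 lay above both WT libraries and replicate 2 below both, a share of 14.3% beside 7.46% of all genes tested. Without replicate 2, the same 8 members were lower in Cdc42-/- against WT and 1 was higher (Txk), beside 8.61% lower and 9.89% higher over all genes. Against Cdc42+/- the same 8 were lower without it, together with Cd4, Cd5 and Nfatc1, beside 7.6% lower and 7.28% higher over all genes. Without replicate 1, 26 members were lower against WT and 4 higher (Grb2, Pag1 and Sla among them), beside 15.4% lower and 20.8% higher over all genes, and the 8 were among the 26. Against Cdc42+/- 26 members were lower and 3 higher without replicate 1, beside 15.5% and 19.3% of all genes. With 1 Cdc42-/- library left, these fits take its spread from the other genotypes. The part of the myeloid RNA in the lower values of replicate 2 was not tested.

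**Figure D4:**
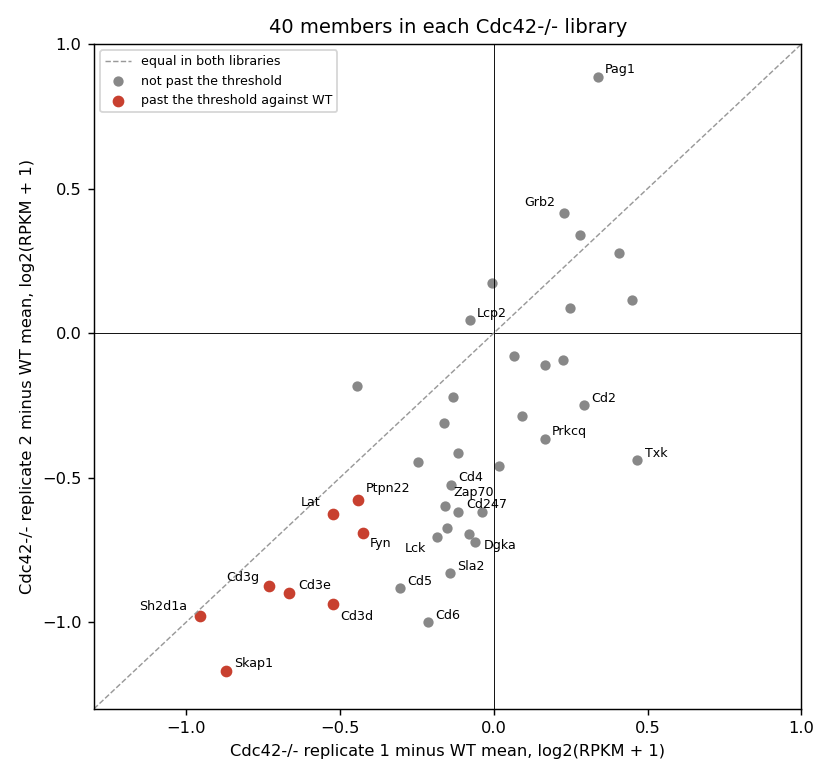
Difference from the WT mean, log2(RPKM + 1), in replicate 1 (x axis) and replicate 2 (y axis) of Cdc42-/- for 40 of the 42 members; red points are the 8 past the threshold against WT and the dashed line marks equal values. The red points lie low on both axes, and most grey points lie below the dashed line, with Txk, Cd2 and Prkcq to the right of 0 on the x axis and below 0 on the y axis.

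Other genes of the pathway, no members of the set, gave limma calls at a share near that of all genes. Of 50 such genes, listed for their place in the pathway, 3 were higher (6%) and 3 lower (6%) in Cdc42-/- against WT. Over all genes 6.86% were higher and 4.57% lower, and the median log2 difference of the 50 was -0.011. Against Cdc42+/-, 3 were higher (6%) and 2 lower (4%), beside 4.68% and 3.54% of all genes. At an adjusted p under 0.05 the authors' deposited table lists 5 of the 50 higher and 4 lower in Cdc42-/- against WT. That table lists 6.0% of all genes higher and 2.66% lower. In Cdc42+/- against WT limma called 0 of the 50, and voom 0 as well. An unadjusted p under 0.05 was found for 2 of them in the limma fit, beside 4.32% of all genes. For Cdc42+/- against WT the authors' deposited table lists 2 of the 50 higher and 0 lower, beside 1.72% and 0.561% of all genes. Rhoh, an atypical GTPase that helps bring Zap70 and Lck to the receptor, had WT levels of 56.4 and 55.3 RPKM, Cdc42+/- levels of 48.8 and 56.3 RPKM and Cdc42-/- levels of 21.1 and 17.6 RPKM. With -1.49 (SE 0.13, adjusted p 0.00246) against WT it fell further than any of the 42 members, whose lowest value was -1.02 for Skap1. Lax1, a membrane adaptor that restrains the pathway, fell from 47.9 ± 0.140 RPKM in WT to 21.4 ± 1.57 RPKM, a change of -1.12 (SE 0.11, adjusted p 0.00355). Tespa1, which couples the receptor to calcium release, had WT levels of 63.8 and 60.2 RPKM, Cdc42+/- levels of 54.97 and 64.4 RPKM and Cdc42-/- levels of 36.4 and 20.7 RPKM, with -1.14 (SE 0.25, adjusted p 0.0384) against WT and -1.09 (SE 0.25, adjusted p 0.0530) against Cdc42+/-. Of the 3 that rose, Ppp3cc and Itpr1 act in calcium signalling. Ppp3cc, another catalytic subunit of calcineurin, had WT levels of 26.8 and 23.3 RPKM, Cdc42+/- levels of 27.6 and 26.6 RPKM and Cdc42-/- levels of 53.4 and 47.2 RPKM, with 0.98 (SE 0.12, adjusted p 0.00684) against WT. Itpr1, an IP3 receptor that releases calcium from the endoplasmic reticulum, rose from 8.91 ± 0.646 to 16.2 ± 1.91 RPKM, with 0.80 (SE 0.15, adjusted p 0.0231). The calls of Rhoh and Lax1 against WT were kept in 13 and 13 of 13 alternatives, that of Ppp3cc in 11, and those of Tespa1 and Itpr1 in 7 and 7, with adjusted p up to 0.194 and 0.157. In each of these 5 genes both Cdc42-/- libraries lay on the same side of all 4 other libraries.

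**Figure D5:**
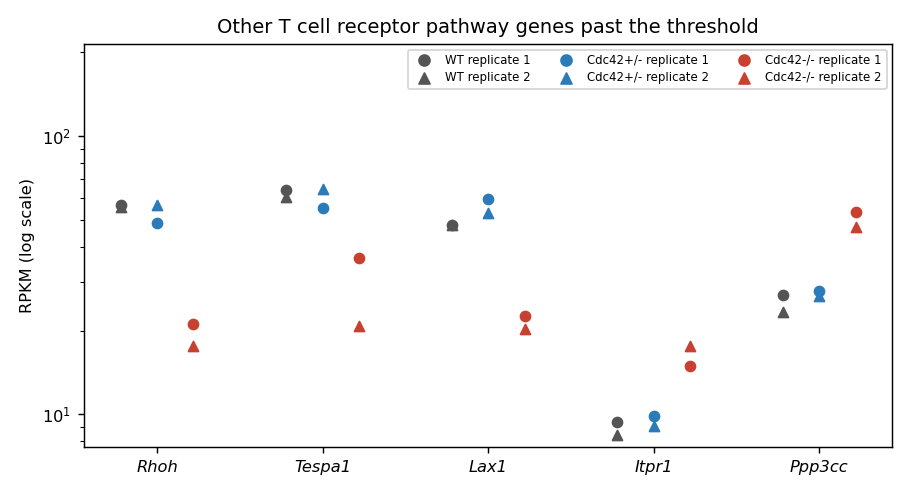
RPKM (log axis) of 5 further pathway genes that passed for Cdc42-/- and WT; colour gives the genotype and shape the replicate. Rhoh, Tespa1 and Lax1 are lower in both Cdc42-/- libraries than in the other 4, and Itpr1 and Ppp3cc are higher.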

How the data were processed

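RNA-seq of 6 libraries was read from 2 deposited tables of 14608 genes, each with the WT libraries. Per the submitters' processing notes, TopHat and the build mm10 were used. The counting tool, annotation, strand setting and filters are not given in the sources used here. The library columns hold RPKM made by the authors, a unit worked out from the deposited values. The deposited group means are a signal, reads over a size factor per library. Fold changes, log2 fold changes, p-values and adjusted p-values deposited by the authors are used only where the authors' deposited table is named.

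RPKM and group means together gave back the reads, with 100% of values whole within 0.01, and 0 columns were of unknown sample. limma 3.58.1 in R 4.3.3 (eBayes with trend) was fitted to log2(RPKM + 1) of the 6 libraries, with genotype as the term, for the 12233 genes whose mean reached 0.5 RPKM. Adjustment was by Benjamini-Hochberg at 0.05. The SE is the moderated one. The fit was also run on simulated reads with the same dispersion for every gene and no library set apart. The real libraries differ from that setting, so the run does not show how many calls here are false. The alternatives were a pseudocount of 0.1, no filter, only the genotypes compared, upper-quartile scaling, array weights, voom on recovered reads, a replicate block, and each library left out.

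The members and lists were chosen with earlier results of these data known. Some genes of the set and lists are counted but not reported here by name. Every other member is accounted for; values per library are given for members past the threshold, for Cd3d, Cd3e, Cd3g, Cd247, Cd4, Lck, Zap70, Lat and Plcg1, and for at most 2 more per role group with the largest differences, with Vav1 as an exception chosen after its values were seen. Of the other pathway genes, at most 3 per direction past the threshold are described. Symbols were matched to RefSeq (GRCm38.p6) by gene ID for 42 of 42 members. In GENCODE M21, exons of 14 members overlap those of another gene.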

Additional observations from a re-analysis of the deposited data

How the results depend on the processing

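In Cdc42-/- against WT, the 8 members remained lower with a pseudocount of 0.1, upper-quartile scaling and voom, and 7 passed with no filter. Array weights left 5 members (Cd3d, Cd3e, Cd3g, Sh2d1a and Skap1), and the WT and Cdc42-/- libraries alone left 2. Leaving out 1 library gave between 0 and 30 members; an arm left with 1 library is assumed to vary like the others. Against Cdc42+/- the count was 5 with no filter, 5 with array weights, 0 with only these genotypes, and 0 to 29 with 1 library left out; with 1 library left out, the counts of 0 came from the 4 fits without a WT or a Cdc42+/- library. Over all genes, Cdc42+/- against WT gave 60 with only these genotypes, 88 with array weights, 1 with voom and 0 to 76 with 1 library left out. Cdc42-/- against WT gave 536 with only these genotypes, 885 with array weights and 259 to 4433 with 1 library left out, and Cdc42-/- against Cdc42+/- gave 276 and, with 1 library left out, 0 to 4263. The cause of these shifts was not tested. The labels do not say what the replicate numbers stand for. Correlations of replicate deviations were 0.0177 for WT with Cdc42+/-, 0.202 for WT with Cdc42-/- and -0.0343 for Cdc42+/- with Cdc42-/-. Whether libraries of the same number share a batch was not tested. With a replicate block 8 members passed against WT and 5 against Cdc42+/-, where Cd3d, Fyn and Lat were lost, and 0 in Cdc42+/- against WT. The direction of the 8 was the same in all 13 alternatives. Of the genes named by the rule, Txk turned to -0.068 with upper-quartile scaling, and with 1 library left out it ran from -0.44 to 0.47 against WT and from -0.53 to 0.38 against Cdc42+/-. With 1 library left out, Prkcq ran from -0.37 to 0.17 against WT and from -0.43 to 0.10 against Cdc42+/-, and Ppp3ca from -0.23 to 0.031 against Cdc42+/-; in each the ends came from leaving out 1 or the other Cdc42-/- library, and the cause was not tested. Outside that rule, the sign also changed under at least 1 alternative for Cd2, Lcp2, Sh2d2a, Sos1, Vav1, Nfatc3, Ptprc and Ptpn6 against WT, and for Cd2, Lcp2, Sos1, Vav1, Nfatc2, Ptprc and Ptpn6 against Cdc42+/-, none of which passed in the fit reported. Tec, with the fewest reads, is the member whose depth limits it most, and 2 libraries per genotype limit every estimate.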
